A study of Mus musculus with 6 samples.

Results

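The regions described here are intervals of trimethylated lysine 4 of histone H3 (H3K4me3) whose centre lay in an annotated exon or at an annotated transcript end, more than 1000 bp from the nearest transcription start site (TSS), and which were narrower than 3000 bp. In the first H3K4me3 library of mouse fetal male germ cells, 4382 of 64891 regions (6.75%) met this rule, 2589 with the deposited class exon and 1793 with the class TTS, the transcript end. Of the 8744 regions in either class, 4319 were left out for lying within 1000 bp of a TSS and 43 for their width. At the distance limit, a region in Six3 lay 1001 bp from the TSS and was kept, and one in Mfsd13a lay at 1000 bp and was not. At the width limit, a region of 2998 bp in Skor2 was kept and one of 3026 bp in Otud7a was not. The score did not enter the rule, but the limit on width, which goes with score, did.

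The data came from CUT&RUN, in which a nuclease is brought to chromatin by an antibody and the DNA it releases is sequenced. Prospermatogonia, the germ cells of the testis before birth, had been sorted for the green fluorescence of an Oct4-EGFP transgene carried by homozygous mice of the line B6;129S4-Pou5f1tm2Jae/J. All samples were labelled C57BL/6, male, E16.5 and Taf4b-wildtype, and none was treated. The 6 samples form 3 groups of 2 replicates, with antibodies against H3K4me3 and against TAF4b and with IgG. IgG was not analysed here, and no value below is set against an antibody background. Nothing states that replicates came from separate animals, and a p-value over libraries then measures only the spread between these samples, which may be technical.

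H3K4me3 is laid down by SET1 and MLL complexes, many of which contain CXXC proteins that bind unmethylated CpG dinucleotides, and the mark is best known from the nucleosomes around the starts of active or poised genes. TAF4b is a subunit of TFIID, the general transcription factor that binds core promoters, and is known for its part in germ cell development. Exons away from a start are mostly coding or untranslated sequence, in which most CpG dinucleotides of mammalian genomes are methylated and have been depleted by mutation, and which ordinarily carry little H3K4me3.

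A few windows of coding sequence show what the strongest of these regions look like. Each is the 300 bases around a region's centre on GRCm39, read 5′ to 3′ on the strand of the host gene, with every CpG in capitals. The first set holds the highest-scoring regions that were centred in coding sequence and overlapped no TAF4b peak of replicate 1: exon 4 of 4 of Col8a1 (chr16:57448295-57448594, minus strand), which encodes a short-chain collagen, exon 2 of 2 of Kprp (chr3:92732015-92732314, minus strand), a proline-rich protein of keratinocytes, and exon 2 of 65 of Myo15a (chr11:60368410-60368709, plus strand), a myosin of inner-ear hair cells.
Col8a1: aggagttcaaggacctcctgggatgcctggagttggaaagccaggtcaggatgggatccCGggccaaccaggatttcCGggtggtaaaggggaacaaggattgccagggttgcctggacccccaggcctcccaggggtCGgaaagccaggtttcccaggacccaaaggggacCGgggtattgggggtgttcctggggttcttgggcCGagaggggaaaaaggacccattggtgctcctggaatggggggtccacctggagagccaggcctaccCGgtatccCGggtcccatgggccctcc
Kprp: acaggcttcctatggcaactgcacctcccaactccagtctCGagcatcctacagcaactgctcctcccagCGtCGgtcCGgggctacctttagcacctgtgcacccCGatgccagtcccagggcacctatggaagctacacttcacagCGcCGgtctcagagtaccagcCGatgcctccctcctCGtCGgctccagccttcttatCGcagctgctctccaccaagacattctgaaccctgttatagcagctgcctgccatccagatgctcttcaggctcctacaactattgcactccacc
Myo15a: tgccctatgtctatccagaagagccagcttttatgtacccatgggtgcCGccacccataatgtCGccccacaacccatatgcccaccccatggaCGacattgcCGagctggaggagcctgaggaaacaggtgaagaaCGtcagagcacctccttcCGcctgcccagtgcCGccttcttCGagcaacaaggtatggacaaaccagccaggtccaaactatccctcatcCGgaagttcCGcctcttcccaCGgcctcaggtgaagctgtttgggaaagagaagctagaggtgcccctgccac

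The second set holds the highest-scoring regions centred in coding sequence that did overlap a TAF4b peak: the only exon of the linker histone gene H1f3 (chr13:23739381-23739680, plus strand), exon 6 of 7 of Prr36 (chr8:4263875-4264174, minus strand) and exon 2 of 2 of Myorg (chr4:41498151-41498450, minus strand), which encodes a glycosidase-like membrane protein.
H1f3: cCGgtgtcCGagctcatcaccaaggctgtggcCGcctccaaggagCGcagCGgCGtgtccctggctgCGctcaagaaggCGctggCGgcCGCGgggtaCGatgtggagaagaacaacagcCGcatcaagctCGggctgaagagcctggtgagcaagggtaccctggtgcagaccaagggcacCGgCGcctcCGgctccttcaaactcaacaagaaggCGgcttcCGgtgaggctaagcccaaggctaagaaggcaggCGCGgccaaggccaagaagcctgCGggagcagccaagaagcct
Prr36: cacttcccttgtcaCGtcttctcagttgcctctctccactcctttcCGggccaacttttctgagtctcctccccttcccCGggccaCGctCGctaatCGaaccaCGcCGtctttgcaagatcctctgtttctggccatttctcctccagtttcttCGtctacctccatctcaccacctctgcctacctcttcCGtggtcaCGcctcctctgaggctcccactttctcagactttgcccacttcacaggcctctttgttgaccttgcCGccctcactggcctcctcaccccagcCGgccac
Myorg: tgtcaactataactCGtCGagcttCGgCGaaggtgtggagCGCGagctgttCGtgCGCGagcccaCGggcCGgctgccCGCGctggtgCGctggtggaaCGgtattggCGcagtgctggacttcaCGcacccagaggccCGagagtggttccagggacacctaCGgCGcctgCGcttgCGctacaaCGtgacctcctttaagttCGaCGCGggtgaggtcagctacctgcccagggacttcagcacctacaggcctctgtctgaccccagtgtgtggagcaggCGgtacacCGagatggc

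The windows held 7 CpG in Col8a1, 11 in Kprp and 11 in Myo15a, against 22 in H1f3, 13 in Prr36 and 28 in Myorg. The observed over expected ratio of CpG (CpG o/e, the CpG count over that expected from the C and G content of the window) was 0.24, 0.49 and 0.46 in the first set and 0.70, 0.67 and 0.91 in the second. The Col8a1 window is rich in C and G (63.3%) with few CpG, and the Myorg window is as rich (64.0%) with 4 times as many. By the GENCODE M39 annotation, H1f3 and Prr36 lay 764 and 166 bp from a start. These windows were picked by score, so the contrast between the sets is a description of 6 regions.

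Position within the host gene was read from the deposited exon number and checked against the GENCODE M39 annotation of the same genome build. The deposited number pointed to the exon holding the region's centre for 2556 of 2566 exonic regions whose transcript was found (99.6%). Exon 2 held most, 592 of 2589 (22.9%, 95% Wilson interval 21.3 to 24.5), followed by exon 3 with 382 (14.8%) and exon 1 with 304 (11.7%, 10.6 to 13.0), and 880 (34.0%) lay in exon 6 or later. By rank, 1317 (50.9%) lay in the last of several exons, 968 (37.4%) in an internal exon, 234 (9.04%) in the only exon of a transcript and 70 (2.70%) in the first of several. In 355 cases (13.7%) the exon was the second of 2. Last exons therefore held the greatest number of exonic regions, and regions near a start, first exons above all, are outside the rule.

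Last exons also hold most of the exonic sequence, so the shares were set beside the exonic bases of the longest transcript of each gene that lay more than 1000 bp from any TSS. Of 2127 regions centred in such an exon, 50.2% (48.1 to 52.3) were in last exons, which hold 63.3% of these bases. Internal exons held 37.9% (35.9 to 40.0) of the regions and 26.3% of the bases. First exons held 2.96% (2.32 to 3.77) of the regions and 1.61% of the bases, and single exons held 8.93% and 8.78%. Per megabase of exon this came to 34.1 regions in internal, 43.5 in first, 24.0 in single and 18.7 in last exons, so that the last exons, with most regions, had fewest per base. Regions of the class TTS were not counted, although bases near transcript ends stayed among the exonic bases. The part of this in the lower values of last exons was not tested. The intervals cover counting error only, and no test was run over regions, which share 1 library.

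**Figure D1:**
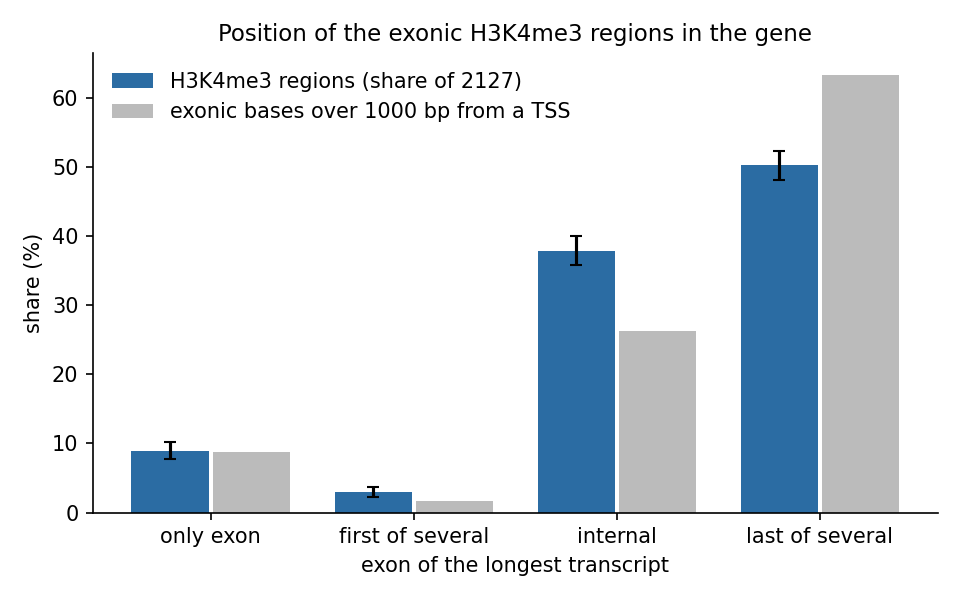
Share (%) of exonic H3K4me3 regions of replicate 1 (blue, with 95% Wilson intervals) and of annotated exonic bases over 1000 bp from a TSS (grey) by exon rank in the longest transcript. Regions exceed the bases in internal exons (37.9% and 26.3%) and fall below them in last exons (50.2% and 63.3%). Regions of the class TTS are not counted, while bases near transcript ends are.

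Most exonic regions lay in sequence that is translated. The centre was in coding sequence for 1469 (56.7%, 54.8 to 58.6), in a 3′UTR for 402 (15.5%), in a 5′UTR for 24 (0.927%) and in a transcript without a reading frame for 670 (25.9%). The exon around the centre had a median length of 1449 bp, with 2193 bp for last, 290 bp for internal, 2473.5 bp for first and 2879 bp for single exons, and 62% of these exons were longer than their region. Most first, last and single exons were thus longer than their region, against 23.3% of internal exons. For the transcript-end class, 1516 of 1793 centres (84.6%) lay outside the named transcript, and over all 1779 with a matched transcript the median centre was 401 bp past its end. The class covers centres from shortly before to about 1 kb after an end, and 93.7% lay between 100 bp before and 1000 bp after it, so that "transcript end" here means mainly sequence just downstream of a gene.

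The median distance to the nearest TSS was 4725 bp, 986 (22.5%) lay within 2000 bp and 1153 (26.3%) beyond 10000 bp, and 74.6% lay downstream of the start. The nearest start belonged to the host gene itself for 68.0% of those that could be compared. The nearest other H3K4me3 region was a median of 6209 bp away, against 11369 bp for intronic regions. For 540 regions (12.3%) the nearer edge, unlike the centre, came within 1000 bp of the start. In 29 of these the region reached the start itself, among them those in Fjx1, C1ql2, Gm5487, Tpi-rs4 and Gm13663 named below. In M39, 481 regions (11%) were within 1000 bp of a start. These 481 had a median score of 59.6 and a median width of 952 bp, against 44.7 and 773 bp for the other 3901.

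The deposited score, whose normalization is not stated and which is the authors' own value for each region, had a median of 46.2 (95% interval from order statistics 44.7 to 47.7), with quartiles at 29.8 and 74.5 and a range of 16.4 to 322. The median over all regions of the library was the same, 46.2, intronic and intergenic regions under the same limits stood at 38.8 each, and promoter regions at 77.5. Widths ran from the minimum of 500 bp, at which 1176 regions (26.8%) were listed, to 2998 bp, with a median of 782 bp (773 to 795) beside 657 bp for intronic, 656 bp for intergenic and 1197 bp for promoter regions. Exonic and transcript-end regions thus stood between intronic and promoter regions in both measures in replicate 1. Score and width moved together across the 4382 regions (Spearman's rho 0.91), so they are not separate observations. In replicate 2, where 99 regions met the rule, the median score was 111.2 in this class and in the intronic class alike, so that the difference in median score was 7.40 in replicate 1 and 0 in replicate 2, with a mean of 3.70 (exact sign-flip test, two-sided, p = 1, n = 2). The median width in replicate 2 was 500 bp, the minimum, in both classes, so that widths could not be compared there.

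The composition of the sequence set these regions apart from introns in both replicates, within what a pair of libraries can show. In replicate 1 the 300 bases around the centre had a median CpG o/e of 0.446 (0.439 to 0.454), beside 0.347 in intronic, 0.327 in intergenic and 0.642 in promoter regions, and a median GC content of 55.7% beside 51.0%, 50.7% and 59.0%. The difference from intronic regions was 0.099 in replicate 1 and 0.197 in replicate 2 for CpG o/e, and 4.67 and 5.00 percentage points for GC content. Both were positive in 2 of 2 replicates, with a mean of 0.148 for CpG o/e (exact sign-flip test, two-sided, p = 0.5, the smallest that n = 2 pairs allow). Exons are richer in C and G than introns in general, and the part of that base composition in the difference was not tested.

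Medians differed by the part of the gene. Exonic and transcript-end regions centred in coding sequence had a median CpG o/e of 0.516 (0.506 to 0.531), those in a 5′UTR 0.513 (26 regions), those in a 3′UTR 0.405, those in noncoding transcripts 0.408 and those outside the transcript 0.404. A window of more than 50% GC with a CpG o/e above 0.6 was found in 928 of the 4382 regions (21.2%), in 5.96% of intronic, 5.10% of intergenic and 51.3% of promoter regions, and in 484 (32.9%) of the 1469 exonic regions in coding sequence. Most of these regions therefore did not reach this CpG density, and 19 held no CpG at all in their window. CpG o/e rose with score, from a median of 0.397 over the 1096 lowest scores to 0.523 over the 1095 highest (rho 0.22 over 4382 regions). At every distance from the TSS the median was above that of introns, from 0.441 against 0.394 at 1000 to 2000 bp to 0.462 against 0.316 beyond 50000 bp.

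Promoter motifs were searched as exact letters in the same windows, on both strands, and no motif contains another. GGGCGG, the GC box, which itself holds a CpG, occurred in 21.2% of the windows, in 22.8% of those of all regions, in 14.8% of intronic and in 46.7% of promoter windows. CCAAT occurred in 30.6%, against 37.0% of all, 39.5% of intronic and 32.2% of promoter windows, and TATAAA in 5.93%, against 9.44%, 11.2% and 6.53%. The windows were thus nearer to promoters than to introns in CCAAT and TATAAA, and nearer to introns in the GC box. A match is a string of letters and not a bound site.

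The same can be asked from the side of the exons. Among 31935 exons of at least 500 bp away from any start, one per position of the longest transcripts, 1534 (4.80%) held the centre of an exonic region. Ordered by the CpG o/e of the 300 bases at their own centre and divided into 10 classes of equal number, 1.75% (1.35 to 2.27) of the exons in the lowest class and 14.2% (13.0 to 15.4) of those in the highest held one, with 3.82% in class 5 and 7.01% in class 9. The rise lay mostly in the last classes. Exons in the highest class were shorter, with a median of 1269 bp against 2059 bp in the lowest. Within lengths of 500 to 1000 bp, 10.2% of exons in the highest class and 0.419% of those in the 5 lowest classes held a region, and from 4000 bp on the shares were 15.4% and 7.86%. Even in the highest class, more than 8 in 10 exons held none.

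**Figure D2:**
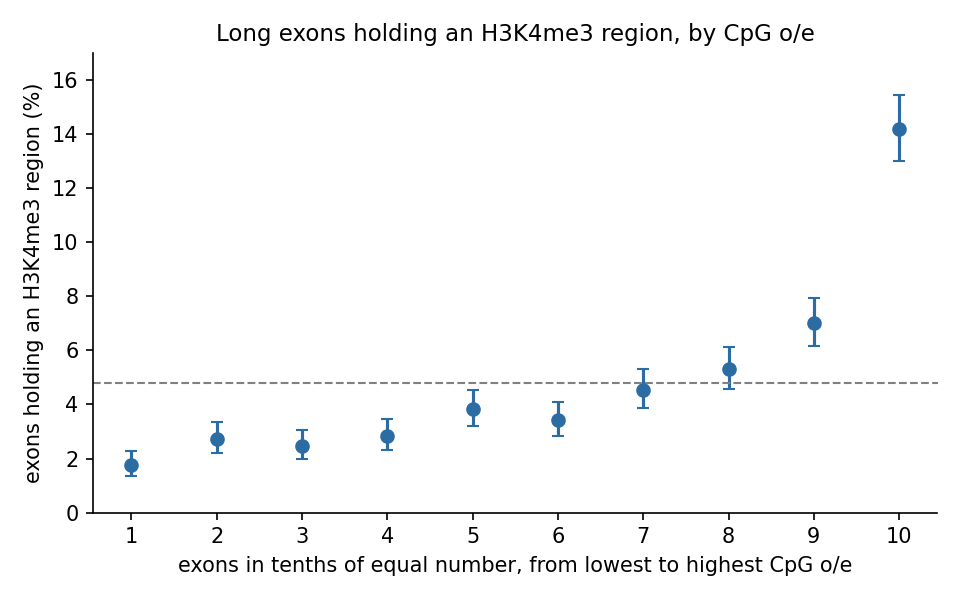
Share (%) of 31935 exons of 500 bp or longer that held the centre of an exonic H3K4me3 region of replicate 1, by 10 equal classes of CpG o/e at the exon's centre, with 95% Wilson intervals and the overall share of 4.80% as a dashed line. The share stays under 4% in the 6 lowest classes and reaches 14.2% in the highest.

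Overlap with TAF4b was read from the peaks of the same-numbered TAF4b library, counted where at least 1 bp was shared. Of the 4382 regions, 154 (3.51%, 3.01 to 4.10) overlapped a TAF4b peak of replicate 1, against 9.62% of all regions of the library, 2.80% (2.52 to 3.11) of intronic, 2.55% (2.37 to 2.74) of intergenic and 29.5% of promoter regions. The share of these regions is below that of the whole list, in which promoters weigh. Against all TAF4b peaks the share rose with the H3K4me3 score, over 4 classes of equal number from 1.28% through 2.01% and 3.19% to 7.58%. With the H3K4me3 and the TAF4b list both reduced to their higher-scoring 50%, it was 1.80% (1.32 to 2.45). Exonic regions stood at 3.17% (82 of 2589) and transcript-end regions at 4.02% (72 of 1793), with overlapping intervals. In replicate 2, 1 of 99 regions under the rule (1.01%) overlapped a peak of TAF4b replicate 2, in Gm43579, a gene named after its value was seen. That region was 500 bp wide and lay 1003 bp from the TSS, just past the distance limit. Of intronic regions 1 of 77 (1.30%) overlapped such a peak, against 6.07% of all 1730 regions. The difference from introns was 0.717 percentage points in replicate 1 and −0.289 in replicate 2, with a mean of 0.214 (exact sign-flip test, two-sided, p = 1, smallest possible 0.5), so that the libraries did not share a direction. With a distance limit of 2000 bp the mean was −0.703, and with the higher-scoring part of each list −1.21, and 1 region of replicate 2 stands for 1.01 points of its share.

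Width bore on this overlap. At the minimum width 1.70% of the exonic and transcript-end regions overlapped a TAF4b peak, from there to 1000 bp 2.57%, over 1000 to 1500 bp 5.16% and over 1500 bp 8.04% (5.94 to 10.8). Intronic regions of the same widths stood at 1.17%, 2.93%, 4.86% and 6.55% (4.81 to 8.86). The intervals overlapped at each width, and in 1 of the 4 width classes intronic regions had the larger share. Promoter regions stood apart at each width, from 8.84% to 44.0%. Regions within 1000 bp of an M39 start overlapped a peak in 6.03% of cases (4.23 to 8.52) and those farther away in 3.20% (2.70 to 3.80).

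The peaks in these regions lay near their centres and scored low in the TAF4b list. The peak centre was a median of 165 bp from the region's centre and within 250 bp in 100 of 154 cases (64.9%). By their own annotation 68 peaks were at a transcript end, 59 in an exon, 24 in an intron, 2 at a promoter and 1 between genes. The median TAF4b score was 10.7, against 14.9 for all 7861 peaks. Regions with a peak had a median score of 82.8, a median width of 1163.5 bp and a median CpG o/e of 0.543, against 44.7, 776 bp and 0.443 for the other 4228. Read from the TAF4b side, 192 of the 7861 peaks (2.44%) met the same distance and class rule, 156 of them lay inside some H3K4me3 region and 122 (63.5%) inside one of the regions described here.

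The 10 highest-scoring regions with a TAF4b peak were led by H1f3, with a score of 232.5 and a peak of score 7.44 at its downstream side. Of the 10, H1f3, Tpi-rs4, Prr36 and Gm13663 lay within 1000 bp of a start listed in M39, at 764, 501, 166 and 548 bp. Others centred in coding sequence were Prr36 (220.6, peak 7.94), Myorg (175.9, peak 7.94) and Cilp2 (172.9, peak 10.9), a cartilage matrix protein whose exon 8 of 8 was the only region of these 4 also listed in H3K4me3 replicate 2, at 156.7. Sox8, an SRY-related transcription factor, carried its region (211.7) past the transcript end with a peak of 8.44, and Plagl1, an imprinted zinc finger gene, likewise (183.3, peak 9.43), 11672 bp from its start. Zfp865, a zinc finger gene, had a region of 201.2 in a single-exon noncoding transcript, with a peak of 8.93. The remaining 3 were at the ends of the lncRNA Gm13663 (187.8) and of the processed pseudogenes Tpi-rs4 (223.6) and Gm7535 (175.9). Reads from a processed pseudogene or a histone gene can be shared with near-identical copies, and how they were placed is not given in the sources used here. None of the 10 overlapped a peak of TAF4b replicate 2.

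Only 3 of the 4382 regions (0.0685%, 0.0233 to 0.201) overlapped a TAF4b replicate 2 peak, against 1.16% of all regions, and 2 of these did so in both TAF4b libraries. The latter lay in exon 4 of 4 of the lncRNA 4930556J02Rik (chr14:61762668-61764081), with an H3K4me3 score of 105.8 and TAF4b scores of 30.8 and 44.5, and at the end of the lncRNA Gm15917 (chr10:81406978-81408448), with 104.3 and with 29.3 and 68.8. Both TAF4b scores of replicate 1 are above the median of 14.9 of that list. The first lay 17802 bp from the nearest deposited start but 546 bp from a start in M39, and the second 2200 bp from one. The third, named here because only 3 were found, was exon 8 of 10 of Lhx6, a LIM homeobox gene (chr2:35980198-35982038), with a TAF4b peak of 56.7 in replicate 2 and none in replicate 1. H3K4me3 replicate 2 listed none of the 3.

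Replicate 2 of H3K4me3 listed 1730 regions, with a lowest score of 96.0 on that list's own scale. Of the 4382 regions 78 (1.78%, 1.43 to 2.22) overlapped one of them, against 2.6% of all regions, 0.541% of intronic, 0.417% of intergenic and 7.47% of promoter regions. Those found had a median score of 119.2, a median width of 1508.5 bp and a median CpG o/e of 0.682, against 44.7, 778 bp and 0.443 for those not found. In the reverse direction, 97 of the 99 replicate 2 regions under the rule (98%) overlapped some region of replicate 1, and 71 overlapped one that met the rule there. The few regions of replicate 2 were thus nearly all in the longer list, and those of replicate 1 that recurred were higher in their median score, width and CpG o/e, with single exceptions such as the end of Mroh2a (CpG o/e 0.11) and exon 14 of Ryr1 (score 44.7). By width, 0.0850%, 0.742%, 2.58% and 8.04% of the exonic and transcript-end regions recurred at 500, over 500 to 1000, over 1000 to 1500 and over 1500 bp, against 0.0469%, 0.354%, 1.16% and 3.79% of intronic ones. The intervals overlapped in the 2 narrower classes and not in the 2 wider ones (5.94 to 10.8 and 2.52 to 5.68 at the greatest width). This rests on 1 pair of libraries and has no replicate check.

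**Figure D3:**
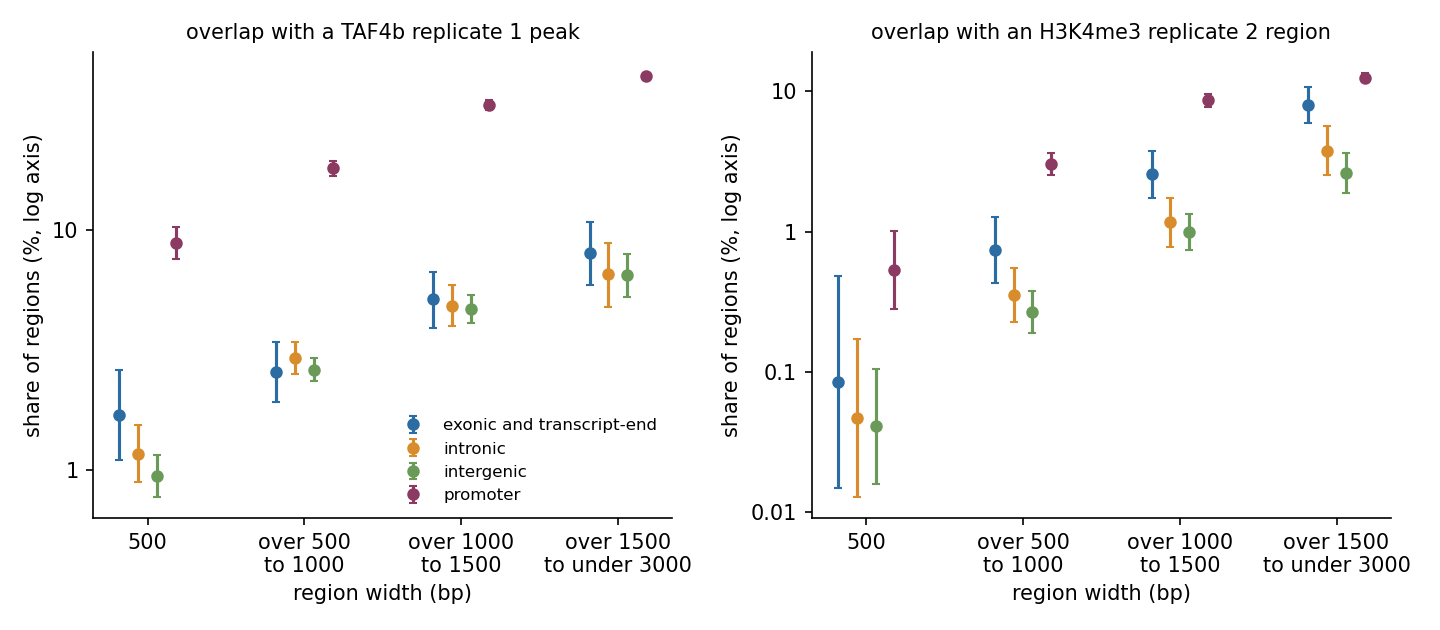
Share (%, log axis) of H3K4me3 replicate 1 regions that overlapped a TAF4b replicate 1 peak (left) or an H3K4me3 replicate 2 region (right), by width and class, with 95% Wilson intervals. On the left exonic and transcript-end regions overlap the intronic intervals at each width (8.04% and 6.55% at the greatest), and on the right they do so in the 2 narrower classes and lie above them in the 2 wider ones (8.04% and 3.79% at the greatest).

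The 10 recurring regions with the highest replicate 2 scores were mostly in second or only exons of coding genes. Fjx1, a single-exon gene for a secreted four-jointed homologue, had 149.1 in replicate 1 and 293.1 in replicate 2, at 1007 bp from its start, and a TAF4b peak of 8.93 in replicate 1. Tchh, trichohyalin of the hair follicle, had 245.9 and 262.8 in exon 2 of 2, and the end of Mroh2a 247.4 and 222.3. Transcriptional regulators followed with the end of Prdm13 (158.0 and 212.2), exon 2 of 9 of Skor1 (175.9 and 181.9) and exon 2 of 2 of Foxa1 (177.4 and 166.8). The list closed with exon 2 of 2 of C1qtnf4, a secreted C1q-domain protein (129.7 and 166.8), of Fam110a (135.6 and 161.7) and of Lrrn2, a neuronal leucine-rich repeat protein (98.4 and 161.7), and with Cilp2. Scores of the 2 lists are each on their own scale. Of the 10, Mroh2a was poorest in CpG, with 2 in its window (o/e 0.11), and C1qtnf4 and Cilp2 were at 1.23 each.

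The highest scores of replicate 1 lay in genes of varied function. Col8a1 led with 322, followed by the processed pseudogene Gm5487 (272.8), Kprp (268.3), Myo15a (260.9), C1ql2, a C1q-like synaptic protein (259.4), Synpo2l, an actin-binding protein of striated muscle, and the relaxin-family receptor Rxfp3 (both 250.4), Mroh2a (247.4) and Tchh (245.9). None of these 9 overlapped a TAF4b peak, where the shares over all 4382 regions were 3.51% for replicate 1 and 0.0685% for replicate 2. Gm5487 and Tchh lay 211 and 514 bp from a start listed in M39. Col8a1, Kprp, Mroh2a and Tchh were also in replicate 2, at 141.5, 111.2, 222.3 and 262.8, beside 1.78% of all 4382 regions that recurred there. Several of these genes are best known from connective tissue, skin, ear, muscle or brain. Col8a1 held rank 75 by score among all regions of the library.

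The 4345 regions whose transcript was found in M39 (99.2%) lay in 3836 genes, of which 3398 held 1 region, 376 held 2, 54 held 3, 7 held 4 and 1 held 5. Protein-coding genes hosted 3416 regions, lncRNA genes 599, pseudogenes 219 and genes of the class TEC, which have tentative transcript support, 94. Regions in lncRNA and pseudogene hosts were lower, with median scores of 41.7 each against 47.7, and poorer in CpG (0.389 and 0.306 against 0.465). Among 21770 protein-coding genes 13.5% hosted at least 1 region. Of those hosts, 51.3% also had a region of the promoter class, beside 52.7% of genes hosting an intronic region and 44.0% of all protein-coding genes. The other hosts had such a region away from the start and none of the promoter class. The 4319 exon or TTS regions within 1000 bp of a TSS are not in the promoter class. These hosts may therefore still have had a region near their start.

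Ryr1, the calcium release channel of skeletal muscle, held 5 regions, in exons 14, 93, 103 and 107 of 109 and at a transcript end, with scores between 44.7 and 55.2. The one in exon 14 was also listed in replicate 2, at 101.1. Sptbn4, a spectrin of the axon initial segment, held 4 with scores of 31.3 to 104.3, all in coding exons, and 2 of them overlapped TAF4b peaks of 7.44 and 19.4. Akap6, an anchoring protein of the muscle nuclear envelope, and Pclo, a scaffold of the presynaptic zone, held 4 each, at 19.4 to 92.4 and 19.4 to 64.1. The scores in these 4 genes thus lay on either side of the median of 46.2. The other genes with 4 regions were Cped1, Pdzd2, Ehd2 and Sash1, and no region of theirs overlapped a TAF4b replicate 1 peak. The share over all 4382 regions was 3.51%, and no test was run on single genes.

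The clustered protocadherins held regions in many of their genes. They encode cell-surface proteins that give neurons their individual identity: each Pcdha and Pcdhg gene supplies a variable first exon that is spliced to shared constant exons, and each Pcdhb gene is a single exon. Regions met the rule in 10 of 15 Pcdha, 19 of 22 Pcdhb and 10 of 22 Pcdhg genes on chromosome 18, beside 13.5% of all protein-coding genes. The 19 Pcdhb regions lay between 1782 and 2174 bp downstream of the start, with scores of 35.8 to 125.2 and a median width of 1058 bp, and 17 of them were in exon 1. Median scores were 64.1 for Pcdha and 54.4 for Pcdhg. The Pcdhb regions were thus placed at a like distance in one large exon after another. Pcdha regions in exon 1 lay up to 2136 bp from the nearest start, 2 of them upstream of it, at Pcdha4 (−1323 bp) and Pcdha12 (−1295 bp), as were those at Pcdhga11 (−1821 bp) and Pcdhgc5 (−1511 bp) of the Pcdhg cluster. The transcript-end regions of Pcdha11 (−7026 bp) and Pcdhga3 (11053 bp) lay farther away. The promoter class was listed at 1, 1 and 2 genes of the Pcdha, Pcdhb and Pcdhg clusters, beside 44.0% of all protein-coding genes. Regions near a start under another class were not counted in these values. None overlapped a listed TAF4b peak in replicate 1, beside 3.51% of all regions under the rule, and 3 of the Pcdhb regions, none of the others, recurred in H3K4me3 replicate 2, beside 1.78% of all regions under the rule.

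These genes weighed on exon 1. Of the 304 regions in exon 1, 35 belonged to the clustered protocadherins, and among the 70 in the first of several exons 9 were Pcdha and 9 Pcdhg. The 304 lay at a median of 1509.5 bp from the start, 237 (78.0%) within 2000 bp, and had a median score of 59.6. With the distance limit at 2000 bp, exon 1 held 3.27% of exonic regions in place of 11.7%. Chromosome 18 also had most exonic regions per megabase of exon, 43.1, and the X chromosome fewest, 18.2, among the autosomes and the X.

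**Figure D4:**
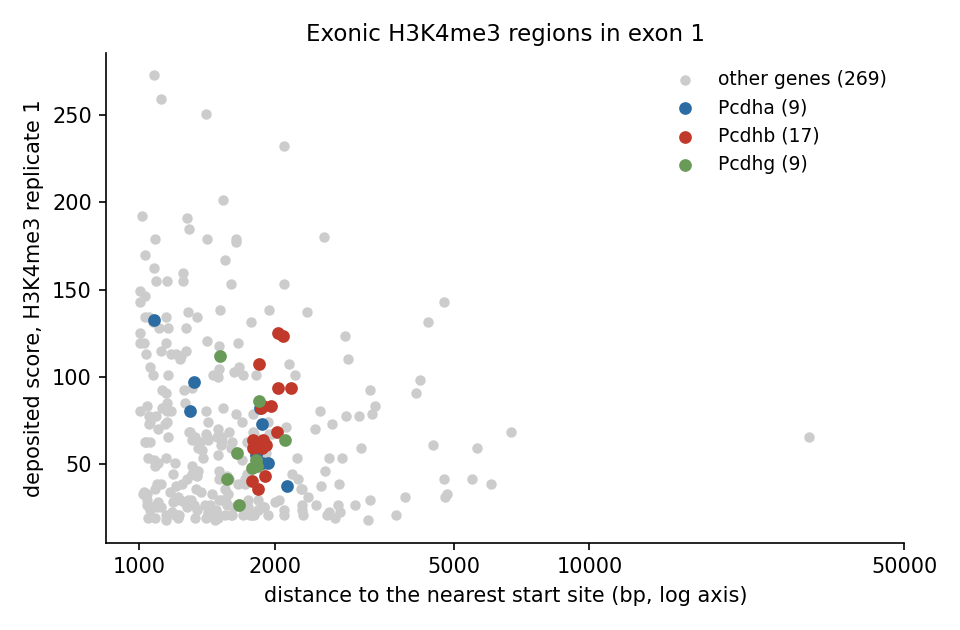
Deposited score in H3K4me3 replicate 1 against distance to the nearest TSS (bp, log axis) for the 304 exonic regions in exon 1, 1 point per region, coloured for Pcdha, Pcdhb and Pcdhg genes. The 17 Pcdhb points form a narrow column between 1782 and 2174 bp.

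Other families counted by symbol gave 87 of 419 Zfp genes (20.8%), 11 of 39 Hox (28.2%), 14 of 44 Col (31.8%) and 69 of 377 Slc genes (18.3%). Olfactory receptors stood at 50 of 1194 (4.19%), vomeronasal receptors at 23 of 353 (6.52%), keratins at 6 of 54, histones at 1 of 73 and ribosomal proteins at 0 of 80. Developmental transcription factors, counted after the data had been seen, held regions in 13 of 45 Fox, 7 of 19 Sox, 6 of 8 Lhx, 7 of 14 Nkx, 8 of 15 Tbx, 4 of 6 Irx, 2 of 9 Pax and 1 of 6 Gata genes. A further family counted in the same way is not reported here. Each transcription factor family listed here thus had a larger share than the 13.5% of all protein-coding genes, and receptor and ribosomal protein families smaller ones. No test was run, and gene length and exon number differ between families. Beside the 3.51% of all 4382 regions, 4 of 8 regions in Sox genes, 5 of 100 in Zfp genes and none in the other 7 developmental families overlapped a TAF4b replicate 1 peak, without a test of the difference.

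Genes of the testis were looked up by list. Beside the 13.5% of all protein-coding genes, 2 of 32 germ cell genes (6.25%) held a region, both near the lower end of the scores: Kit, the receptor of stem cell factor, in exon 3 of 21 (22.4), and Piwil4, a piRNA-binding protein of prospermatogonia, in a terminal exon (26.8). Of 32 genes of the other cells of the fetal testis 11 (34.4%) held 16 regions with a median score of 55.9. Gata4, a transcription factor of the gonadal soma, was highest, with 152.0 past a transcript end and 131.4 in replicate 2. Lhx9 (80.5), Nr5a1 (77.5), Sox9 (68.6 and 25.3), Wt1 (58.1 and 53.7), and Amh, the hormone of Sertoli cells (49.2 and 25.3), were lower, and the stronger Amh region recurred in replicate 2 at 106.1. Others were in Kdr, Lhx2, Nr2f1 and Acta2. The somatic list thus had more genes with regions than the germ cell list, while regions of the promoter class were listed at 19 of 32 genes in each, beside 44.0% of all protein-coding genes. No region of either list overlapped a TAF4b replicate 1 peak, beside 3.51% of all 4382 regions. Cells other than germ cells in the sort cannot be measured from region lists, and their part in these counts was not tested. Among 18 genes of H3K4 methylation and demethylation only Setd1b had a region (93.9, at a transcript end), and among 16 TFIID genes none did, with the same 13.5% as background and no test.

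Across the 4 libraries, the same rule was met by 6.75% and 5.72% of the H3K4me3 regions and by 2.44% and 0.825% of the TAF4b peaks. The means were 6.24% ± 0.729 and 1.63% ± 1.14 (SD, n = 2 each), and both H3K4me3 libraries were above both TAF4b libraries. The difference of 4.60 percentage points gave p = 0.333 by an exact two-sided permutation test over libraries, the smallest value that 2 against 2 allow. TAF4b peaks had a fixed width of 142 bp in replicate 1 and 188 bp in replicate 2, whereas H3K4me3 regions varied in width, and the part of width in this difference was not tested.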

How the data were processed

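Lists of 4 CUT&RUN libraries were used, 1 per library, from 2 H3K4me3 and 2 TAF4b replicates. Per the file headers the authors annotated the H3K4me3 regions with HOMER annotatePeaks on GRCm39 and Ensembl 103. Bowtie2 2.3.0 and HOMER 4.10 are named in the submitters' processing notes. The caller's threshold is not given in the sources used here. The deposited peak score is the authors' value without a stated normalization, and depth is unknown. Deposited TAF4b lists also hold a focus ratio, a fraction that entered no result. Deposited width and distance are in bp.

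Members, gene lists and families were chosen with earlier results of these data known. Exons, coding sequence and starts came from GENCODE M39, and 300-base windows from GRCm39 (pysam 0.24.0). Intervals overlapped when sharing at least 1 bp. Shares carry 95% Wilson intervals and medians 95% order-statistic intervals, both for counting error only. Tests were exact and over libraries: permutation between antibodies, sign flips between classes within a library. The overlap and interval functions were tested on simulated intervals. Named regions were the 10 highest in score, of which 1 is not reported here, the 10 highest with a TAF4b peak, those with peaks in both TAF4b replicates, the 10 highest in H3K4me3 replicate 2, the 8 genes with over 3 regions (the rule was 10, but 54 genes tied for the next places), and genes of 4 lists. Lhx6 and Gm43579 were named after their values were seen, as were the developmental transcription factor families. Alternatives covered distance, width, score, overlap, host genes and replicates. RefSeq promoter tables of another build were not used.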

Additional observations from a re-analysis of the deposited data

How the results depend on the processing

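All results rest on 1 long list and 1 short one per antibody, so that a value of replicate 2 moves with single regions, and depth is unknown. Of 50 alternative values, 31 stayed in direction or within the interval, 16 moved and 3 reversed, and the cause was not tested beyond what each limit removes. Alternatives with widths over 1000 bp and without the clustered protocadherins were chosen after seeing the data. The TAF4b overlap of 3.51% became 1.80% in the higher-scoring 50% of both the H3K4me3 and the TAF4b list, 2.95% at widths under 1500 bp, 6.12% at widths over 1000 bp, 0.0685% with TAF4b replicate 2 peaks and 2.90% with TAF4b peaks classed exon or TTS. The difference from introns, 0.214 points, became −0.703 at distances over 2000 bp and −1.21 in the higher-scoring 50%, and was −0.289 to 0.717 with 1 replicate left out. It kept its sign but shrank to 0.00028 points over 1000 bp from any M39 start and to 0.0268 points at widths under 1500 bp. The median score of 46.2 became 74.5 in the higher-scoring 50%, 41.7 at widths under 1500 bp and 49.2 with 1 region per host gene, and the median width of 782 bp became 1144, 720 and 807 bp. Exon 1 held 3.27% at distances over 2000 bp, 13.7% in the higher-scoring 50%, 13.1% with 1 region per gene and 10.5% without the clustered protocadherins. Recurrence in replicate 2 became 1.00% at widths under 1500 bp. The difference between antibodies was 4.31 to 4.90 points with 1 replicate left out. The labels number the replicates and do not say what same-numbered libraries share. With the replicate number as a block the difference between antibodies was 4.60 points (exact sign-flip test, p = 0.5), and without the block the difference from introns stayed at 0.214 points (exact permutation test, p = 1).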
